A study of Mus musculus with 59 samples.

Results

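The arcuate nucleus of the hypothalamus (ARC) was compared between mice given IP118/PY115 and mice given vehicle, across all expressed genes. The members are the libraries whose titles name the arcuate nucleus: 19 of the 59 libraries of the series, of which 10 came from IP118/PY115 mice and 9 from vehicle mice. The mice were C57BL/6. Each received a single intraperitoneal injection and was killed 4 h later, and its brain was snap-frozen and cut at 10 µm. Laser capture took 4 mm² of each region from each animal, and polyA RNA was sequenced with a stranded mRNA kit. Both groups share the strain, the route and the time. The labels used here do not give dose, age, sex or diet, and they do not tie libraries to animals, so the p-values measure the spread between libraries. The series title concerns joint agonism at receptors for the gut hormones PYY and GLP-1 in obese, diabetic mice, and the labels do not say which of the 2 names in IP118/PY115 acts on which receptor. A captured area is bulk tissue, in which fewer cells of a type and less RNA per cell cannot be told apart.

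The arcuate nucleus lies beside the median eminence, where the blood-brain barrier is permeable, and senses circulating hormones. Its AgRP neurons, which also make neuropeptide Y, drive feeding, and its POMC neurons, which make melanocortins, oppose it. PYY released from the gut after a meal is cut to a form that acts on Y2 receptors of AgRP neurons, and GLP-1 acts on receptors carried by POMC neurons among others. Leptin and related cytokines signal there through STAT transcription factors, which induce SOCS proteins that dampen the same signal. Corticosterone, the main glucocorticoid of mice, enters the brain and acts on a nuclear receptor that binds glucocorticoid response elements near its target genes.

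All 19 libraries carried arcuate genes. Names such as treated 2 and vehicle 8 are not in the labels: they number the libraries of a group by the order of the library numbers in their titles. The summed level of 9 arcuate markers was 2045 to 3688 CPM in IP118/PY115 libraries (median 3014) and 2871 to 4248 CPM in vehicle libraries (median 3201), where CPM is the usual count scaled to a common, TMM-adjusted library size. The markers of the nucleus of the solitary tract (NTS), a brainstem region, summed to 1.27 to 2.96 CPM with IP118/PY115 and 0.904 to 4.87 CPM with vehicle. Library totals ran from 8930867 to 14476523 counts with IP118/PY115 and from 4546257 to 11995799 with vehicle. Mean log10 totals were 7.04 with IP118/PY115 and 6.97 with vehicle, a difference of 0.068 (exact permutation test, two-sided p = 0.184). The library treated 2 stood apart on the first principal component (54.3, 18.1% of the variance), and its mature oligodendrocyte markers summed to 6431 CPM, against medians of 1011 CPM in all IP118/PY115 libraries and 852.8 CPM in vehicle libraries. Markers of the dorsomedial hypothalamus reached 434.8 CPM in treated 3, those of the pituitary 81.1 CPM in vehicle 4 and those of the paraventricular nucleus (PVN) 701 CPM in vehicle 9. The libraries numbered 5556 and 5557, vehicle 8 and vehicle 9, stand apart in number from the others and are both vehicle.

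A pair of libraries went against their labels. On 27 genes that respond to glucocorticoids, scored per library as the mean log2 level minus the vehicle median, treated 1 scored -0.12, while the other 9 IP118/PY115 libraries scored 0.48 to 0.85. Vehicle 1 scored 0.63, while the other 8 vehicle libraries scored -0.41 to 0.22. Many genes outside that list behaved in the same way, such as Setdb2, at 6.49 CPM in treated 1 and 18.2 CPM in vehicle 1, against 11.4 to 20.6 CPM in the other IP118/PY115 libraries and 4.29 to 7.15 CPM in the other vehicle libraries. Results of the 17 libraries without them stand below beside those of all 19. Since treated 1 and vehicle 1 were picked from the outcome, p-values from the 17 libraries are too small, and non-overlap of the groups there is no independent support.

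**Figure D1:**
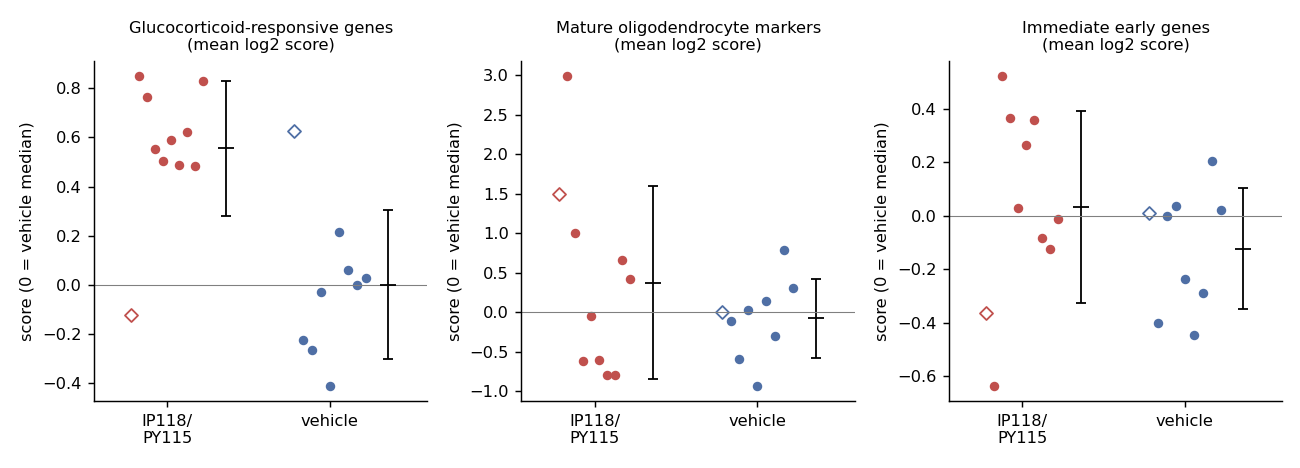
Score of 3 gene lists in each arcuate library, as mean log2 (CPM + 0.5) of the members minus the vehicle median (y axis), with IP118/PY115 on the left and vehicle on the right. Open diamonds are treated 1 and vehicle 1, filled dots the other libraries, and bars the mean ± SD. On the glucocorticoid-responsive list, treated 1 (-0.12) lies among the vehicle libraries and vehicle 1 (0.63) among the treated ones, whereas the oligodendrocyte and immediate early lists do not separate the groups.

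No gene passed under the deposited labels. In the 19 libraries 0 of 13484 tested genes (0%) had a false discovery rate (FDR, Benjamini-Hochberg adjusted p) under 0.05 in edgeR's quasi-likelihood test, and the smallest FDR was 0.0656, shared by 7 genes. At an unadjusted p under 0.05, 543 genes were higher with IP118/PY115 (4.03%) and 428 were lower (3.17%). The other test for counts, DESeq2, called 59 genes in the same 19 libraries, 46 higher and 13 lower. In the 17 libraries without treated 1 and vehicle 1, edgeR called 153 of 13464 genes, 110 higher (0.817%) and 43 lower (0.319%). Below, a gene said to rise or fall in the 17 libraries is one called there. The median absolute log2 fold change of those 153 genes was 0.49, and 16 of them reached 1, so most differences were of modest size. Leaving out vehicle 1 alone gave 85 called genes, and leaving out treated 1 alone gave 50.

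The genes of smallest p were of several kinds. Arhgef3 (chr14:27114899-27403911, GRCm38), an exchange factor for small GTPases, had 41.7 to 69.5 CPM with IP118/PY115 (median 59.2) and 32.1 to 58.9 CPM with vehicle (median 37.8). All 10 IP118/PY115 libraries were above the vehicle median, and the groups overlapped only through treated 1 and vehicle 1. Its log2 fold change was 0.54 ± 0.10 (SE; edgeR FDR = 0.0656), and 0.69 ± 0.08 (edgeR FDR = 3.21e-06) without them. Noct encodes nocturnin, a rhythmically expressed phosphatase of NADP(H), and had 58.4 to 87.8 CPM (median 74.6) with IP118/PY115, against 49.3 to 79.3 CPM (median 52) with vehicle. It too had all 10 treated libraries above the vehicle median (0.42 ± 0.08, edgeR FDR = 0.0656), with no overlap in the 17 libraries. Il1rap, the accessory chain that interleukin 1 receptors need to signal, had 44.3 to 59.8 CPM (median 50.1) with IP118/PY115 and 32 to 56.1 CPM (median 34.5) with vehicle. Here treated 1 lay with its own group at 55.4 CPM and only vehicle 1, at 56.1 CPM, lay with the other (0.45 ± 0.09, edgeR FDR = 0.0656).

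The other 9 genes of this set follow. Ric1, part of an exchange factor for Rab6 at the Golgi, had 36.8 to 53.9 CPM with IP118/PY115 and 29.1 to 40.1 CPM with vehicle, a log2 fold change of 0.37 ± 0.07 in which neither library numbered 1 was out of place. Appl2, an endosomal adaptor, had 84.9 to 116 CPM with IP118/PY115 (median 100.3) and 72.6 to 87.9 CPM with vehicle (median 80.7), with a log2 fold change of 0.29 ± 0.06. Stt3b is a catalytic subunit of the enzyme that attaches N-linked glycans, and was at 110.2 to 144 CPM with IP118/PY115 and 89.2 to 135 CPM with vehicle (0.30 ± 0.07). Kctd12, an auxiliary subunit of GABA-B receptors, differed by 0.30 ± 0.07, and Efnb2, which encodes the membrane-bound ephrin-B2, by 0.40 ± 0.09. Klf13 (0.48 ± 0.10), Sertm1 (0.43 ± 0.09), Rassf8 (0.32 ± 0.07) and Ivns1abp (0.29 ± 0.06) made up the 12, with FDRs in the set from 0.0656 to 0.134, and all 12 rose in the 17 libraries.

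Of the 12 lower genes of smallest p, 11 were called lower in the 17 libraries. Fgd3 (chr13:49261554-49320311), an exchange factor for the GTPase Cdc42, had 9.44 to 17.1 CPM with IP118/PY115 (median 13.1) and 14.6 to 27.1 CPM with vehicle (median 19.6). No IP118/PY115 library was above the vehicle median (log2 fold change -0.61 ± 0.12, edgeR FDR = 0.0656). Tnfrsf11b (chr15:54250619-54278484) encodes osteoprotegerin, a secreted decoy receptor for RANKL, and had 2.90 to 7.90 CPM with IP118/PY115 (median 4.33) and 3.90 to 11.7 CPM with vehicle (median 9.32). The vehicle value of 3.90 is vehicle 1, and without it and treated 1 the groups did not overlap (-0.87 ± 0.19 in 19 libraries, edgeR FDR = 0.0896; -1.07 ± 0.17 in 17, edgeR FDR = 3.42e-04). Efnb1, which encodes ephrin-B1, was lower while its relative Efnb2 above was higher: it had 34.2 to 51.6 CPM with IP118/PY115 and 44.8 to 65.6 CPM with vehicle (-0.36 ± 0.08). Prkar2b, a regulatory subunit of protein kinase A, had 94.8 to 142 CPM with IP118/PY115 and 125 to 171 CPM with vehicle (-0.26 ± 0.07, edgeR FDR = 0.164).

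The rest of this lower set comprised the transcription factors Foxo6 (-0.65 ± 0.15), Sox2 (-0.34 ± 0.08) and Klf16 (-0.39 ± 0.10), the potassium channel subunit Kcng1 (-0.58 ± 0.14), the magnesium carrier Slc41a3 (-0.37 ± 0.09), the unconventional myosin Myo10 (-0.29 ± 0.07), Sh3yl1 (-0.42 ± 0.09) and Tubb2b (-0.21 ± 0.05). Foxo6 had 5 to 6.58 CPM with IP118/PY115 and 6.36 to 14.8 CPM with vehicle, and the single overlapping vehicle library was vehicle 1. Tubb2b, a tubulin, was the member that did not pass in the 17 libraries (edgeR FDR = 0.0510).

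**Figure D2:**
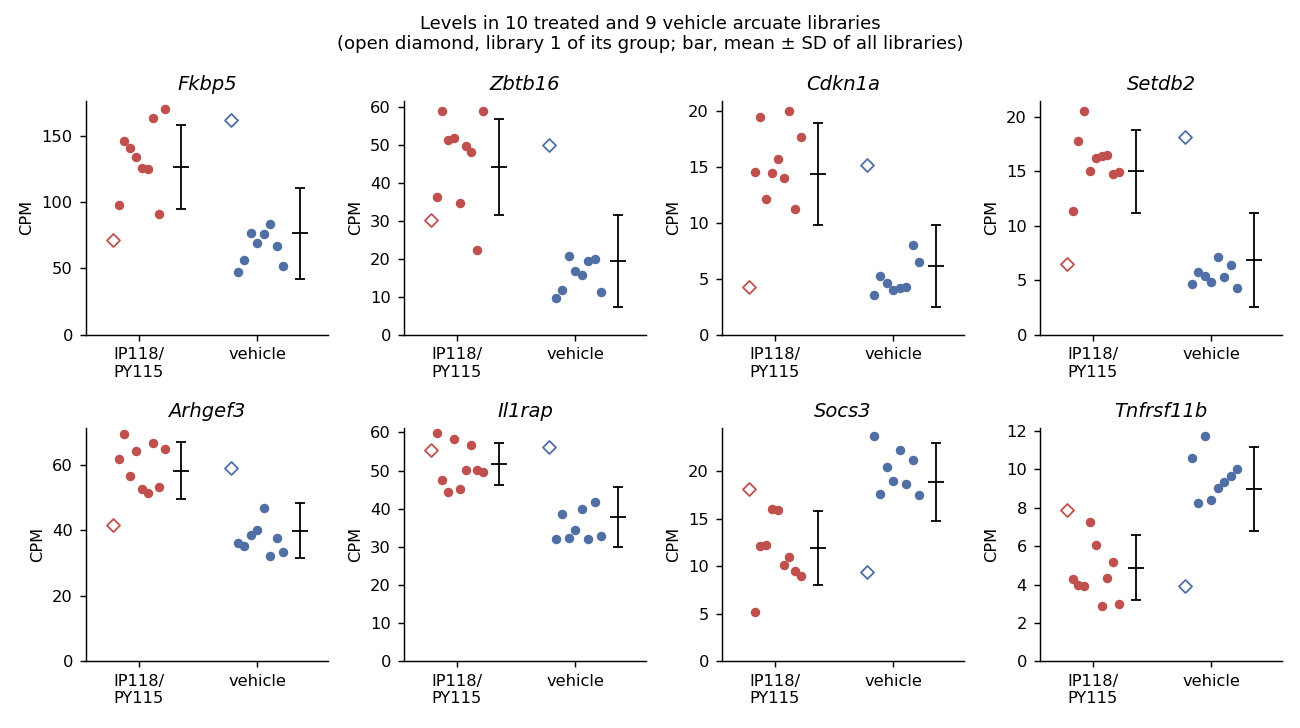
Level in CPM (y axis, from 0) of 8 genes in each arcuate library, IP118/PY115 on the left and vehicle on the right. Open diamonds are treated 1 and vehicle 1, dots the other libraries, and bars the mean ± SD of all libraries of the group. For Setdb2 the other 9 treated libraries sit between 11.4 and 20.6 CPM and the other 8 vehicle libraries between 4.29 and 7.15 CPM, and Socs3 and Tnfrsf11b show the opposite order.

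Among the 21 pathway lists shown in the plot of list medians, that of genes known to respond to glucocorticoids had the median farthest from 0. Of its 28 members 27 passed the count filter (Lcn2 did not), and all 27 were higher with IP118/PY115, beside 6752 of the 13484 genes tested. Their median log2 fold change was 0.47, with a range of 0.027 to 1.49, beside a median over all genes of 0.00. At an unadjusted p under 0.05, 20 of the 27 were higher, and none passed the FDR in 19 libraries. In the 17 libraries all 27 were higher, 16 of them were called, and the median was 0.60. Over all genes tested, 4.03% were higher at that p, and 0.817% were called higher in the 17 libraries. Oligodendrocyte markers were also higher with IP118/PY115, as given further on: with the oligodendrocyte score as a covariate the median was 0.49, and without treated 2 as well as treated 1 and vehicle 1 it was 0.64. The list was chosen with earlier results of these data known and is no independent evidence of its direction.

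The promoter windows of the list's members were searched for the full response element, because the receptor binds it and the members lean together. The windows are RefSeq's for GRCm38.p6, 250 bases before to 50 after each start. A window existed for 25 of the 28 genes, 39 windows in all. The letters GNACA, then any 3 bases, then TGTNC, which read the same on both strands, occurred in 5 of these 39 windows (12.8%), belonging to 4 genes, and in 156 of all 32851 windows (0.475%). The 4 genes are shown with the match in capitals.
Map3k6 (chr4:133240568-133240867, + strand): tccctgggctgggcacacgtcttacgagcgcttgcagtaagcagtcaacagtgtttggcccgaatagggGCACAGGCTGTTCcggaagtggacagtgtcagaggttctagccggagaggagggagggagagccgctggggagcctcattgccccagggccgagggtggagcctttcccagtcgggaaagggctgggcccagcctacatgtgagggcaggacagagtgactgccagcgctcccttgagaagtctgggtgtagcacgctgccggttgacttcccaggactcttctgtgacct
Sgk1 (chr10:21993640-21993939, + strand): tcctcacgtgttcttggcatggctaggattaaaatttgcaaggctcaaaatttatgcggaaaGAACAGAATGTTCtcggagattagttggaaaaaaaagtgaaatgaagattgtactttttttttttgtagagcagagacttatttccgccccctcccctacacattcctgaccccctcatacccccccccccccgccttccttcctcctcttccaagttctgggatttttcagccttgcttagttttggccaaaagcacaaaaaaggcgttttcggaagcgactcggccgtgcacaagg
Fam107a (chr14:8309730-8310029, - strand): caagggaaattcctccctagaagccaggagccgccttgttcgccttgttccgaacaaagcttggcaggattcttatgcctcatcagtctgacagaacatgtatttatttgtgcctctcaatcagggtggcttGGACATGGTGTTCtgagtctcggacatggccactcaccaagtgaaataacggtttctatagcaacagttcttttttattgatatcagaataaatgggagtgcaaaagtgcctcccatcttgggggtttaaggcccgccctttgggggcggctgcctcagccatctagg
Mt1 (chr8:94178839-94179138, + strand): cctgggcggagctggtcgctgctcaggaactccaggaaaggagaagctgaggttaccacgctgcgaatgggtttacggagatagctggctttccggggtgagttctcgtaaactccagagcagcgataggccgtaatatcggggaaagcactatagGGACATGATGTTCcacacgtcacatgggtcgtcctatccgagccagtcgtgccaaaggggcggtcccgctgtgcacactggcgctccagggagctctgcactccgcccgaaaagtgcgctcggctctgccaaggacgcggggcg
The matches begin 181, 188, 118 and 94 bases before the annotated starts, at positions -181, -188, -118 and -94. A match describes these letters only. The members were listed as genes known to respond to glucocorticoids, so their share of windows with a match is no result of these data. Map3k6, a stress-activated kinase, had 2.26 to 11.1 CPM with IP118/PY115 (median 6.94) and 2.44 to 7.36 CPM with vehicle (median 3.83), and rose in the 17 libraries (0.69 ± 0.23, edgeR FDR = 0.378 in 19 libraries; 0.95 ± 0.19, edgeR FDR = 0.00815 in 17). Fam107a, which encodes an actin-associated protein, had 257 to 382 CPM with IP118/PY115 (median 332) and 175 to 356 CPM with vehicle (median 228), and rose there too (0.47 ± 0.11, edgeR FDR = 0.164 in 19 libraries; edgeR FDR = 6.04e-05 in 17). Sgk1, a kinase induced by corticosteroids, had 31.4 to 173 CPM with IP118/PY115 (median 57.7) and 21.2 to 66.8 CPM with vehicle (median 34.5). Its highest value was that of treated 2, the oligodendrocyte-rich library, and it did not pass in either set (0.83 ± 0.30, edgeR FDR = 0.484 in 19 libraries and 0.127 in 17). Mt1, a metallothionein, had medians of 163 CPM with IP118/PY115 and 159 CPM with vehicle and overlapped fully (0.09 ± 0.12, edgeR FDR = 0.907), so a match was not accompanied by a difference in every gene that held one.

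Among regulators of the glucocorticoid receptor itself, Fkbp5 (chr17:28399094-28517527), a co-chaperone that lowers the receptor's affinity for hormone, had 71.3 to 170 CPM with IP118/PY115 (median 129) and 46.8 to 162 CPM with vehicle (median 68.8). The extremes that cross are treated 1 at 71.3 CPM and vehicle 1 at 162 CPM, and the other libraries did not overlap. Its log2 fold change was 0.72 ± 0.22 (edgeR FDR = 0.329) in 19 libraries and 1.02 ± 0.14 (edgeR FDR = 6.81e-04) in 17. Tsc22d3, the glucocorticoid-induced leucine zipper, had 74.4 to 150 CPM with IP118/PY115 (median 113) and 58.8 to 113 CPM with vehicle (median 80.0), and rose in the 17 libraries (0.45 ± 0.12, edgeR FDR = 0.202 in 19 libraries; 0.59 ± 0.09, edgeR FDR = 2.45e-04 in 17). Among 12 corticosteroid receptors and their chaperones, 5 were higher and 7 lower (median -0.02), 0 were called in either set, and those of smallest p were the coactivators Ncoa1 (0.15 ± 0.06) and Ncoa2 (0.14 ± 0.06) and the ubiquitin ligase Stub1 (-0.13 ± 0.05).

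Among the transcription factors of the list, Zbtb16 (chr9:48654297-48836222), a zinc finger repressor, had 22.2 to 59.2 CPM with IP118/PY115 (median 49) and 9.69 to 50.2 CPM with vehicle (median 16.8). Without vehicle 1 at 50.2 CPM the vehicle libraries ended at 20.8 CPM, below every IP118/PY115 library (1.17 ± 0.28, edgeR FDR = 0.168 in 19 libraries; 1.55 ± 0.20, edgeR FDR = 3.71e-04 in 17). Klf9 had 56.3 to 106 CPM with IP118/PY115 and 47.3 to 78.5 CPM with vehicle (0.42 ± 0.10), and Klf15 16.5 to 36.3 CPM with IP118/PY115 and 12.8 to 26.7 CPM with vehicle (0.50 ± 0.12), and both rose in the 17 libraries without overlap (edgeR FDR = 0.134 and 0.151 in 19; 1.38e-04 and 3.75e-04 in 17). Hif3a, a hypoxia-inducible factor subunit that antagonises its relatives, had 3.03 to 11 CPM with IP118/PY115 (median 6.91) and 0.221 to 5.94 CPM with vehicle (median 2.00), with all 10 treated libraries above the vehicle median (1.32 ± 0.31, edgeR FDR = 0.134; DESeq2 FDR = 0.00390). Bcl6, a transcriptional repressor, had 27.9 to 89.1 CPM with IP118/PY115 (median 61.1) and 15.7 to 61.6 CPM with vehicle (median 34.5), and rose in the 17 libraries (0.78 ± 0.24, edgeR FDR = 0.37 in 19 libraries; 1.02 ± 0.21, edgeR FDR = 0.0203 in 17) with some overlap left.

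Other members of the list act on growth and signalling. Cdkn1a (chr17:29090976-29100727), which encodes the cell cycle inhibitor p21, had 4.30 to 20.1 CPM with IP118/PY115 (median 14.6) and 3.52 to 15.2 CPM with vehicle (median 4.64). The other 9 treated libraries had at least 11.3 CPM and the other 8 vehicle libraries at most 8.04 CPM, and the log2 fold change was 1.19 ± 0.28 (edgeR FDR = 0.159) in 19 libraries and 1.61 ± 0.16 (edgeR FDR = 3.45e-07) in 17. Errfi1, an inhibitor of EGF receptors, had medians of 72.2 CPM with IP118/PY115 and 43.5 CPM with vehicle, and Nfkbia, the inhibitor of NF-kB, 47.5 CPM with IP118/PY115 and 33.2 CPM with vehicle (edgeR FDR = 0.251 and 0.586 in 19 libraries; 8.51e-06 and 0.0114 in 17). Not every classical target moved: Dusp1, a MAP kinase phosphatase, had medians of 15.6 CPM with IP118/PY115 and 15 CPM with vehicle (0.03 ± 0.14, edgeR FDR = 0.982). The lipid droplet gene Plin4 (3.14 CPM with IP118/PY115, 1.05 CPM with vehicle), glutamine synthetase Glul (764.5 and 704.1 CPM) and Gpd1 (9.51 and 8.90 CPM), given as medians in that order of groups, each had their highest value in treated 2 and passed in neither set.

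**Figure D3:**
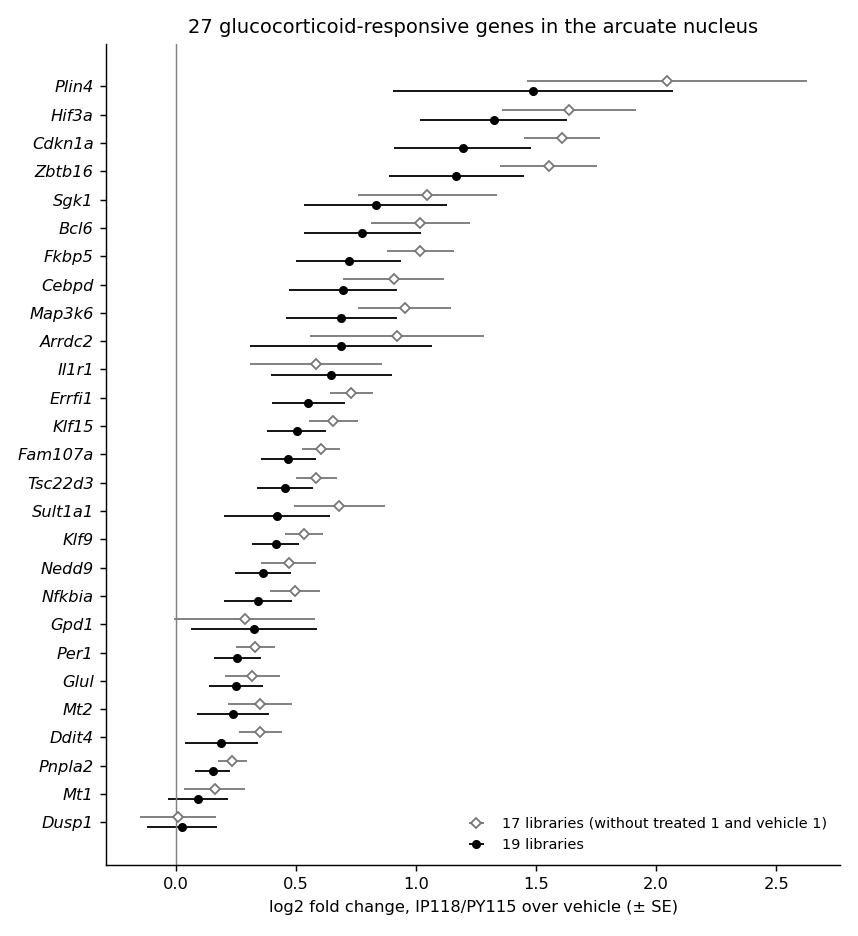
Log2 fold change of IP118/PY115 over vehicle, with SE bars (x axis), for the 27 tested glucocorticoid-responsive genes (y axis), from 19 libraries (filled) and from 17 libraries without treated 1 and vehicle 1 (open). Every estimate lies above 0, from 0.027 for Dusp1 to 1.49 for Plin4 in 19 libraries.

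Among the SOCS genes, Socs3 (chr11:117966079-117970047), the feedback inhibitor of leptin and cytokine receptors, had 5.19 to 18.2 CPM with IP118/PY115 (median 11.6) and 9.44 to 23.7 CPM with vehicle (median 19). No IP118/PY115 library exceeded the vehicle median, and the 2 values that cross are treated 1 at 18.2 CPM and vehicle 1 at 9.44 CPM. Its log2 fold change was -0.65 ± 0.18 (edgeR FDR = 0.251; DESeq2 FDR = 0.0369), and it fell in the 17 libraries (-0.82 ± 0.15, edgeR FDR = 0.00220). Cish, another member of the family, had 4.81 to 26 CPM with IP118/PY115 (median 8.16) and 8.07 to 21.7 CPM with vehicle (median 15.9), where the 26 CPM is treated 1. It fell in the 17 libraries (-0.88 ± 0.17, edgeR FDR = 0.00750), while in 19 its difference was -0.51 ± 0.27 (edgeR FDR = 0.728). Socs1 had 3.95 to 7.80 CPM with IP118/PY115 and 5.18 to 9.84 CPM with vehicle, with no treated library above the vehicle median, and did not pass in either set (-0.39 ± 0.14, edgeR FDR = 0.479 and 0.246).

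The promoter windows of Socs3 and Cish are shown because both genes fell in the 17 libraries and STAT factors bind TTCNNNGAA, which reads the same on both strands. These letters occurred in 2 of the 3 windows of Socs3, Cish and Socs1, and in 8.30% of all 32851 windows, so that a single match is common. They also occurred in 6 of the 39 windows of the glucocorticoid-responsive genes (15.4%), those of Bcl6, Klf9, Per1, Sgk1 and Tsc22d3.
Socs3 (chr11:117969317-117969616, - strand): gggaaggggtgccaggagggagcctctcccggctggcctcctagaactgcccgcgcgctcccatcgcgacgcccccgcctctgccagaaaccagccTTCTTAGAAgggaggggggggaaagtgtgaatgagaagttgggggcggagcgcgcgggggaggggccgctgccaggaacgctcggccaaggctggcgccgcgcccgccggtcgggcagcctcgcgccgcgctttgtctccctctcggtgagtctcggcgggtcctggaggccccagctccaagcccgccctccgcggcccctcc
Cish (chr9:107296409-107296708, + strand): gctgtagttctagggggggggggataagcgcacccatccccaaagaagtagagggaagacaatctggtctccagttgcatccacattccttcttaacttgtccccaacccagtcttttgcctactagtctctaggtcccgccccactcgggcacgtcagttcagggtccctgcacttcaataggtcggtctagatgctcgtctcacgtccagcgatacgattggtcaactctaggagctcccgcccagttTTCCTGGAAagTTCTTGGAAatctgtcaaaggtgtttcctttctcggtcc
The match in Socs3 begins at position -154, and Cish holds 2 matches that begin at its annotated start and 11 bases after it. Across the 20 genes of leptin and insulin signalling, 11 were higher and 9 lower in 19 libraries (median 0.01). At an unadjusted p under 0.05, 2 were higher and 4 lower, and in the 17 libraries 9 were higher and 11 lower, with Socs3 the only one called. Over all genes tested, 4.03% were higher and 3.17% lower at that p, and 0.319% were called lower in the 17 libraries. The insulin receptor substrate Irs2 had medians of 150.0 CPM with IP118/PY115 and 134 CPM with vehicle (0.16 ± 0.06, edgeR FDR = 0.535), and Igf1r had 58.5 CPM with IP118/PY115 and 52.2 CPM with vehicle (0.17 ± 0.07, edgeR FDR = 0.571). The leptin receptor Lepr had 7.40 to 25.3 CPM with IP118/PY115 and 8.69 to 21.2 CPM with vehicle, fully overlapping (0.36 ± 0.20, edgeR FDR = 0.737).

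The peptide genes that define arcuate neurons overlapped between the groups. Agrp had 298 to 782 CPM with IP118/PY115 (median 494) and 495 to 1003 CPM with vehicle (median 529.8), a log2 fold change of -0.20 ± 0.17 (edgeR FDR = 0.852). Npy had medians of 1103 CPM with IP118/PY115 and 1121 CPM with vehicle (-0.13 ± 0.15, edgeR FDR = 0.888). Pomc had 444 to 1123 CPM (median 716) with IP118/PY115 and 590.5 to 950.3 CPM (median 699) with vehicle (0.02 ± 0.14, edgeR FDR = 0.985), and Cartpt, its companion peptide, medians of 278 CPM with IP118/PY115 and 277 CPM with vehicle (-0.00 ± 0.12). The SEs of these genes, 0.12 to 0.17, leave room for differences of a size that other genes showed. Peptides of other arcuate neurons were likewise not separated: the log2 fold changes were 0.05 ± 0.10 for Ghrh, 0.07 ± 0.14 for Tac2, 0.12 ± 0.10 for Pdyn, -0.09 ± 0.12 for the dopamine-making enzyme Th and -0.11 ± 0.08 for Sst, with FDRs of 0.786 or more. Crh, at 0 to 0.892 CPM with IP118/PY115 and 0 to 0.182 CPM with vehicle, was too low to test. The homeobox gene Gsx1, needed to form GHRH neurons, had 6.96 to 18.1 CPM with IP118/PY115 (median 15.7) and 12.2 to 26.9 CPM with vehicle (median 20.9), and fell in the 17 libraries (-0.47 ± 0.15, edgeR FDR = 0.316 in 19 libraries; -0.58 ± 0.14, edgeR FDR = 0.0297 in 17). Tbx3, a factor that keeps POMC neurons in their identity, had 109 to 169 CPM with IP118/PY115 (median 152) and 154 to 216 CPM with vehicle (median 179). No treated library exceeded the vehicle median, and it fell in the 17 libraries (-0.24 ± 0.07, edgeR FDR = 0.202 in 19; -0.28 ± 0.07, edgeR FDR = 0.0297 in 17).

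Among receptors for gut hormones and feeding signals, 15 of 22 were higher and 7 lower (median 0.06), and 0 passed in either set. The receptors that the series title names were both present. Npy2r, the Y2 receptor for PYY, had 116 to 243 CPM with IP118/PY115 (median 158) and 162 to 250.3 CPM with vehicle (median 206). All treated libraries but treated 1, at 243 CPM, were below the vehicle median (-0.33 ± 0.13, edgeR FDR = 0.558 in 19 libraries; -0.44 ± 0.11, edgeR FDR = 0.0550 in 17). Glp1r had 4.64 to 13.2 CPM with IP118/PY115 (median 8.30) and 5.95 to 18.6 CPM with vehicle (median 7.73), fully overlapping (-0.09 ± 0.20, edgeR FDR = 0.957). Ghsr, the receptor for the hunger hormone ghrelin, had 52.8 to 113 CPM with IP118/PY115 (median 83.1) and 38.7 to 92.7 CPM with vehicle (median 56.8), and 9 of its 10 treated values exceeded the median of vehicle (0.49 ± 0.17, edgeR FDR = 0.468 in 19; 0.62 ± 0.16, edgeR FDR = 0.0812 in 17). Mc4r, a melanocortin receptor, had 4.68 to 10.1 CPM with IP118/PY115 and 4.45 to 7.42 CPM with vehicle (0.38 ± 0.15, edgeR FDR = 0.520), and Mc3r had equal means of 54.5 CPM. Among the remaining receptors the log2 fold changes were small: Npy1r (0.04 ± 0.07), Npy5r (0.01 ± 0.08), Insr (0.07 ± 0.06) and Calcr (-0.10 ± 0.09). Of 14 genes of AgRP neurons, 9 were higher and 5 lower (median 0.05), of 11 of POMC neurons 6 were higher and 5 lower (median 0.00), and of 19 of other arcuate neurons 7 were higher and 12 lower (median -0.04).

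Genes induced by neuronal activity were not called as a group. Among 20 immediate early factors, 15 were higher and 5 lower (median 0.21). At an unadjusted p under 0.05 there was 1 in each direction, beside 4.03% of all genes higher and 3.17% lower. Fos had 16.8 to 100.4 CPM with IP118/PY115 (median 33.4) and 21.2 to 51.3 CPM with vehicle (median 36.8), with full overlap (0.27 ± 0.33, edgeR FDR = 0.894). Fosl2, a slower Fos relative, had 14.6 to 53.9 CPM with IP118/PY115 (median 37.8) and 12.4 to 25.6 CPM with vehicle (median 21.4), and rose in the 17 libraries (0.84 ± 0.21, edgeR FDR = 0.187 in 19; 0.98 ± 0.20, edgeR FDR = 0.0149 in 17; DESeq2 FDR = 0.0224 in 19). Klf6 fell there (-0.29 ± 0.10, edgeR FDR = 0.382 in 19 libraries; -0.38 ± 0.08, edgeR FDR = 0.0143 in 17), with medians of 44.6 CPM with IP118/PY115 and 53.9 CPM with vehicle. Of 22 later activity genes 18 were higher (median 0.09), and Cdkn1a and the pseudokinase Trib1 were those that rose in the 17 libraries. Trib1 had medians of 37.9 CPM with IP118/PY115 and 23.9 CPM with vehicle, with no overlap in the 17 libraries (0.57 ± 0.20, edgeR FDR = 0.482 in 19 libraries; 0.80 ± 0.12, edgeR FDR = 1.37e-04 in 17).

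The largest rises outside the lists were in genes of varied function. Setdb2 (chr14:59402009-59440884), a member of the SET-domain methyltransferase family, had 6.49 to 20.6 CPM with IP118/PY115 (median 15.7) and 4.29 to 18.2 CPM with vehicle (median 5.40). Its log2 fold change was 1.11 ± 0.25 (edgeR FDR = 0.135; DESeq2 FDR = 0.0115), and 1.55 ± 0.13 (edgeR FDR = 1.25e-08) in the 17 libraries. Phf11c, the next gene on the same strand (chr14:59380833-59395381) and one of a family of similar genes, also rose in the 17 libraries at 2.11 CPM with IP118/PY115 and 0.725 CPM with vehicle (medians; edgeR FDR = 0.419 in 19 libraries and 0.0185 in 17), and how reads were shared among them is not given in the sources used here. RefSeq also lists a read-through gene that spans Setdb2 and Phf11c. Gpr6, a receptor that raises cyclic AMP without a known ligand, had 11.8 to 44.6 CPM with IP118/PY115 (median 36) and 8.18 to 40.9 CPM with vehicle (median 11.7), where treated 1 is the lowest treated and vehicle 1 the highest vehicle library (1.04 ± 0.29, edgeR FDR = 0.277 in 19 libraries; 1.45 ± 0.17, edgeR FDR = 6.18e-05 in 17). Fam43a had 59.6 to 85.8 CPM in the other 9 treated libraries and 23.5 to 33.2 CPM in the other 8 vehicle libraries, while treated 1 had 15.4 CPM and vehicle 1 had 72.2 CPM, and its edgeR FDR was 0.316 in 19 libraries and 1.09e-10 in 17. Minar1 (0.93 ± 0.11), the fatty acid hydroxylase Cyp4v3 (0.93 ± 0.14) and Hhip, an inhibitor of Hedgehog signalling (0.86 ± 0.18), rose in the 17 libraries too. In 19 libraries their differences were 0.68 ± 0.18 (edgeR FDR = 0.251), 0.70 ± 0.18 (edgeR FDR = 0.167) and 0.66 ± 0.19 (edgeR FDR = 0.251), in that order of genes.

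The largest falls in the 17 libraries, beside Cish, Tnfrsf11b, Socs3 and others above, follow. Nr0b1, an orphan nuclear receptor that represses steroid-making genes, had 1.48 to 9.16 CPM with IP118/PY115 (median 4.80) and 4.54 to 17 CPM with vehicle (median 7.92), with treated 1 the highest treated and vehicle 1 the lowest vehicle library (-0.81 ± 0.25, edgeR FDR = 0.296 in 19 libraries; -1.04 ± 0.23, edgeR FDR = 0.0143 in 17). Cyp26b1, which degrades retinoic acid, fell by 0.61 ± 0.16 on the log2 scale (edgeR FDR = 0.0490), Plekho2 by 0.68 ± 0.14, Phlda1 by 0.66 ± 0.14 and 2810459M11Rik by 0.65 ± 0.15. In 19 libraries these 4 differed by -0.45 ± 0.17 (edgeR FDR = 0.479), -0.53 ± 0.16 (edgeR FDR = 0.265), -0.48 ± 0.17 (edgeR FDR = 0.427) and -0.50 ± 0.16 (edgeR FDR = 0.316), in the same order. Several other calls are named here after their values were seen. The glucose transporter Slc2a1 had medians of 89.1 CPM with IP118/PY115 and 70.0 CPM with vehicle (0.58 ± 0.12, edgeR FDR = 0.0203 in 17; 0.46 ± 0.13, edgeR FDR = 0.286 in 19 libraries; highest in treated 2 at 152 CPM), the corticotropin-releasing hormone receptor Crhr1 had 33.6 CPM with IP118/PY115 and 25 CPM with vehicle (0.43 ± 0.10, edgeR FDR = 0.134 in 19 libraries; 0.51 ± 0.10, edgeR FDR = 0.00815 in 17), and the phosphatidate phosphatase Lpin1 had 108 CPM with IP118/PY115 and 82.7 CPM with vehicle (0.29 ± 0.08, edgeR FDR = 0.164 in 19 libraries; 0.41 ± 0.05, edgeR FDR = 3.5e-05 in 17). Rasgrp1, an exchange factor for Ras, fell in the 17 libraries, with medians of 144 CPM with IP118/PY115 and 206 CPM with vehicle and 250.1 CPM in treated 1 against 143 CPM in vehicle 1 (-0.41 ± 0.14, edgeR FDR = 0.448 in 19 libraries; -0.57 ± 0.09, edgeR FDR = 0.00152 in 17).

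Clock genes did not shift as a group. Of 21, 10 were higher and 11 lower (median -0.01). At an unadjusted p under 0.05 there were 4 in each direction, beside 4.03% of all genes higher and 3.17% lower. Noct and Per1 rose in the 17 libraries and Dbp and Bhlhe40 fell there. Dbp, an output factor of the clock, had 73.7 to 111 CPM with IP118/PY115 (median 87.0) and 86.8 to 137 CPM with vehicle (median 106), with a log2 fold change of -0.30 ± 0.08 (edgeR FDR = 0.202 in 19; 0.0364 in 17). Bhlhe40, a repressor in the same loop, had 49.8 to 96.8 CPM with IP118/PY115 (median 66.3) and 54.3 to 114 CPM with vehicle (median 97.2), with no treated library above the vehicle median (-0.42 ± 0.14, edgeR FDR = 0.437 in 19; 0.00784 in 17). The Kruppel-like factors split likewise: 8 of 15 were higher and 7 lower (median 0.01). In the 17 libraries Klf9, Klf13 and Klf15 were called higher and Klf6 and Klf16 lower. The labels do not give the time of day.

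Cholesterol synthesis genes leaned lower by little. Of 22 members 19 were lower and 3 higher (median -0.08), beside 6732 lower of all 13484 genes tested. Sqle, an early enzyme of the sterol branch, had 78.5 to 109.7 CPM with IP118/PY115 (median 98) and 92.4 to 121 CPM with vehicle (median 108), with overlapping ranges (-0.14 ± 0.06, edgeR FDR = 0.601). Insig1, which holds back the activation of sterol synthesis, differed by -0.15 ± 0.07 (edgeR FDR = 0.680).

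FoxO and nutrient stress genes, 13 of 22 higher with 6 of them at an unadjusted p under 0.05 (median 0.09), included Klf15 above, the pyruvate dehydrogenase kinase Pdk4 (medians 4.79 CPM with IP118/PY115 and 2.67 CPM with vehicle; 0.72 ± 0.22, edgeR FDR = 0.278) and Angptl4, a secreted inhibitor of lipoprotein lipase (4.70 and 2.90 CPM in the same order; 0.68 ± 0.25, edgeR FDR = 0.476). Neither passed in the 17 libraries (edgeR FDR = 0.0552 and 0.0563). Nuclear genes of oxidative phosphorylation were lower in 65 of 81 cases, but by a median of only -0.05, with 6 lower at an unadjusted p under 0.05. For both lists the shares over all genes at that p were 4.03% higher and 3.17% lower. Cytosolic ribosomal proteins were lower in 72 of 79 (median -0.06), and without treated 2, treated 1 and vehicle 1 that median was -0.02. Neither list had a called gene in either set. The other lists were the unfolded protein response (13 of 18 higher, median 0.02), N-glycosylation (9 of 20 higher, median -0.01), heat shock (5 of 14 higher, median -0.02), neuropeptide processing (6 of 12 higher, median 0.00), growth arrest (12 of 14 higher, median 0.13) and interleukin 1 and NF-kB (11 of 17 higher, median 0.06). In the 17 libraries Ddit4, Trib1 and Klf15 rose among the FoxO and nutrient stress genes, Il1rap and Nfkbia rose and Socs3 fell in the interleukin 1 list, Cdkn1a rose in the growth arrest list and Stt3b in the N-glycosylation list, and 0 members were called in the other 3.

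**Figure D4:**
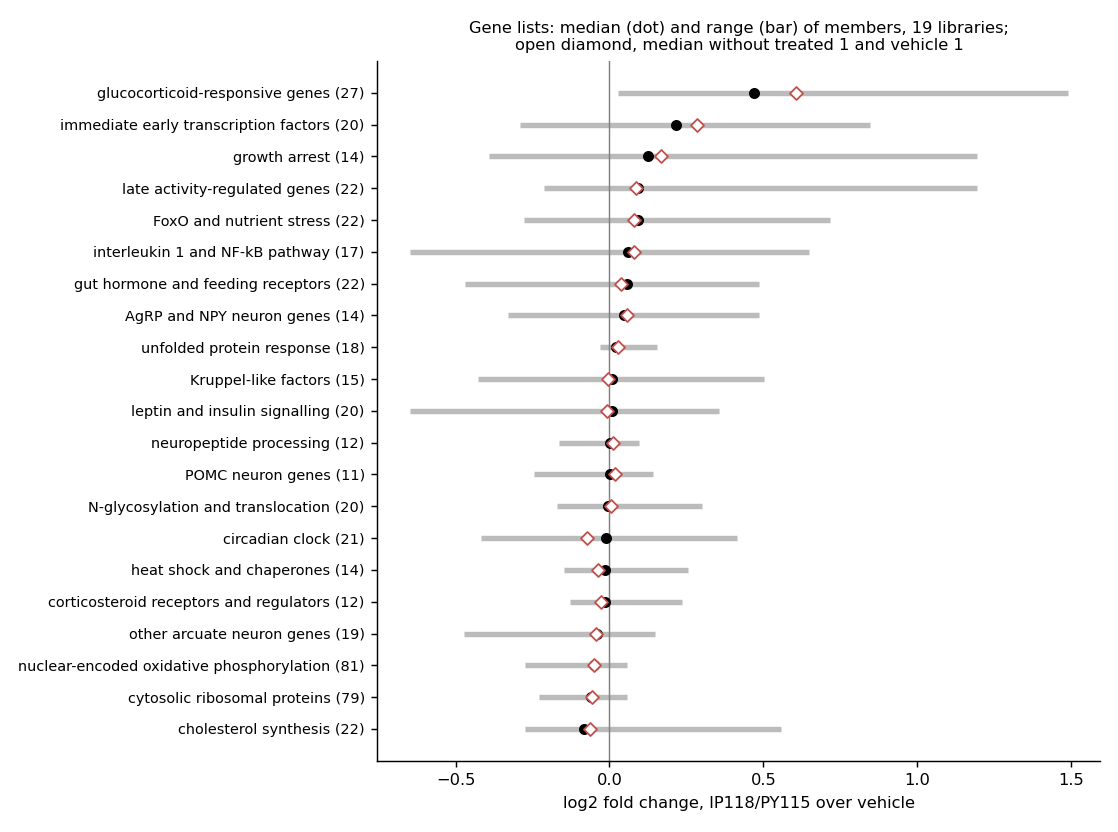
Median (dot) and range (bar) of the log2 fold changes of the members of 21 gene lists in 19 arcuate libraries (x axis), with the number of tested members in brackets. Open diamonds give the medians in the 17 libraries, and the glucocorticoid-responsive list lies farthest from 0, at 0.47 and 0.60.

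Markers of glia and vessels were compared as well. All 14 mature oligodendrocyte markers were higher with IP118/PY115 (median log2 fold change 0.99), yet 0 were called in either set. Their summed level was 532.5 to 6431 CPM with IP118/PY115 and 515.9 to 1415 CPM with vehicle, and without treated 2 the median was 0.28 and without treated 1 and vehicle 1 as well it was 0.03. Of 12 microglial markers 10 were lower (median -0.08), and Cx3cr1, the fractalkine receptor, fell in the 17 libraries, with 13.9 to 26.2 CPM with IP118/PY115 (median 20.4) and 20.8 to 35 CPM with vehicle (median 25.5; -0.41 ± 0.12, edgeR FDR = 0.251 in 19 libraries; -0.49 ± 0.12, edgeR FDR = 0.0243 in 17). P2ry12 (-0.35 ± 0.12) and Trem2 (-0.37 ± 0.15) were lower at an unadjusted p under 0.05 only. Astrocyte (7 of 12 higher, median 0.05), tanycyte (7 of 10, median 0.13), endothelial (7 of 12, median 0.07) and pan-neuronal markers (5 of 10, median -0.0050) had members in both directions, and mural markers (9 of 10 higher, median 0.22) also peaked in treated 2. All 5 red blood cell markers were higher (median 0.27) and all 7 tested meningeal fibroblast markers were lower (median -0.25), with 0 called in either set. The astrocyte and progenitor factor Sox9 had 13.7 to 25 CPM with IP118/PY115 and 19 to 28.5 CPM with vehicle (-0.36 ± 0.10, edgeR FDR = 0.204), beside Sox2 above. The 12 astrocyte markers ran from -0.36 to 0.29, with 1 higher and 1 lower at an unadjusted p under 0.05, beside 4.03% and 3.17% of all genes.

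The arcuate effect was set against the effect of the same treatment in PVN and NTS, in a joint fit of 59 libraries. Each region was captured from each animal, but the labels do not tie libraries to animals. The fit therefore took libraries of different regions as independent, and its p-values leave this pairing out. The effects differed between ARC and PVN in 7 of 14379 genes (0.0487%), 1 higher and 6 lower in ARC, and between ARC and NTS in 0 (0%), with 893 and 540 genes at an unadjusted p under 0.05; by limma-voom the counts were 26 and 3. Appl2 was the gene with the more positive effect in ARC, with log2 fold changes of 0.29 ± 0.07 in ARC and -0.16 ± 0.07 in PVN (difference 0.45, edgeR FDR = 0.0456). The other 6 passed as rises in PVN and did not pass in ARC in that fit. Tsc22d1, a leucine zipper protein, had -0.08 ± 0.06 in ARC and 0.43 ± 0.06 in PVN (edgeR FDR = 0.00311), and Cyp51, a cholesterol-making demethylase, -0.03 ± 0.08 in ARC and 0.55 ± 0.08 in PVN (edgeR FDR = 0.0165). Apobec1, an RNA-editing deaminase, had -0.58 ± 0.22 in ARC and 0.91 ± 0.21 in PVN (edgeR FDR = 0.0279). Tmem200a, Fam222b and Ift57, the last named after its value was seen, differed by -0.66, -0.43 and -0.52.

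Without the libraries numbered 1 of every region, the difference was called in 52 genes against PVN and 35 against NTS. This choice was made with earlier results of these data known, so its p-values too are too small. The number 1 marks the lowest library number of each group and is not a label, so libraries of the same number need not share an animal. Setdb2 had log2 fold changes of 1.11 in ARC, 0.18 in PVN and -0.0069 in NTS in all 59 libraries, where its difference passed in neither contrast (edgeR FDR = 0.28 against PVN and 0.218 against NTS). Without the libraries numbered 1 it had 1.54 in ARC, 0.32 in PVN and -0.02 in NTS, and both differences passed (edgeR FDR = 1.72e-04 and 2.93e-07). 3 activity genes are named after their values were seen. Fosb had 0.54 in ARC and 2.53 in NTS in all 59 libraries (edgeR FDR of the difference = 1), and 0.67 in ARC and 4.38 in NTS without the libraries numbered 1 (edgeR FDR = 7.07e-05). Junb had 0.21 in ARC and 1.33 in NTS in all 59 libraries (edgeR FDR of the difference = 0.852), and 0.30 in ARC and 1.76 in NTS without the libraries numbered 1 (edgeR FDR = 0.00823). Nptx2, a synaptic pentraxin, had 0.27 in ARC and 1.37 in NTS in all 59 libraries (edgeR FDR of the difference = 0.983), and 0.44 in ARC and 1.80 in NTS without the libraries numbered 1 (edgeR FDR = 0.00383). These 3 differences rest on leaving out those libraries. Over whole lists, in the fit of 59 libraries, the immediate early factors had medians of 0.21 in ARC, 0.20 in PVN and 0.65 in NTS, and the later activity genes 0.09 in ARC, 0.20 in PVN and 0.48 in NTS. The glucocorticoid-responsive list had medians of 0.47 in ARC, 0.46 in PVN and 0.50 in NTS in the same fit, with 27, 25 and 26 of 27 members higher.

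**Figure D5:**
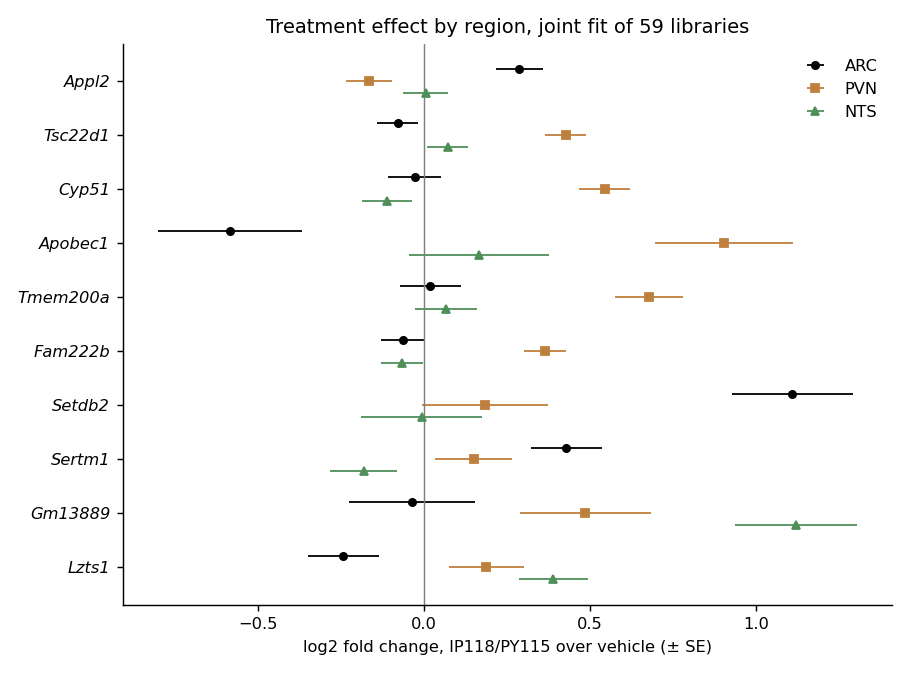
Log2 fold change of IP118/PY115 over vehicle with SE bars (x axis) in ARC, PVN and NTS for 10 genes (y axis) among those with the smallest p for a difference between ARC and another region, from the joint fit of 59 libraries. Appl2 to Fam222b passed for ARC against PVN, with Appl2 at 0.29 in ARC and -0.16 in PVN, and the 4 lower genes did not pass for ARC against NTS.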

How the data were processed

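The deposited table holds raw read counts per gene, made by the authors from reads converted with bcl2fastq 2.20.0.422 and aligned with STAR 2.5.2a to GRCm38, per the submitters' processing notes. The counting tool, its strand setting and its annotation are not given in the sources used here. The table has 21935 gene IDs, of which 21858 were matched to GENCODE M21 for names and positions, and it holds 0 mitochondrially encoded genes. Columns were assigned to samples by the library number in the sample titles, and depth per sample is given with the results. Counts of the 19 arcuate libraries were filtered with edgeR's filterByExpr (at least 10 counts, total of at least 15), leaving 13484 genes, scaled by TMM and tested with the robust quasi-likelihood test of edgeR 4.0.16 in R 4.3.3, two-sided, with Benjamini-Hochberg adjustment over all tested genes. Folds are IP118/PY115 over vehicle. For differences of the effect between the 3 regions, 1 model was fitted to all 59 libraries. DESeq2 1.42.0, limma 3.58.1 and surrogate variables from sva 3.50.0 served as alternatives, beside other scalings, filters, covariates and left-out libraries. The edgeR fit was tested on simulated data first.

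Genes named are the 12 of smallest p in each direction and, among genes called without vehicle 1 and treated 1, up to 12 of the largest changes in each direction (all at a mean of at least 5 CPM), listed feeding genes, up to 4 members of smallest p per list and up to 5 per regional difference. Further members of the glucocorticoid list, Socs1, Cish as a promoter example and Sox9 were added, and genes named after their values were seen are said to be so. The members, the lists and the choice of leaving out treated 1 and vehicle 1 were made with earlier results of these data known. Promoter windows came from RefSeq (GRCm38.p6). Some results on withheld items are not reported here.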

Additional observations from a re-analysis of the deposited data

Results flagged for a closer look

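In 24 of 148 groups of values 1 library lay far from the rest by Dixon's test, which chance alone gives in about 1 in 20 groups. The genes examined include those named from the fit without vehicle 1 and treated 1. That choice favours genes in which these libraries stand apart, so the count cannot be judged against that share. Vehicle 1 was that library in 15 of them. It was the highest vehicle library for Noct (79.3 CPM), Il1rap (56.1 CPM), Stt3b (135 CPM), Klf13 (79.1 CPM), Rassf8 (53.3 CPM), Cdkn1a (15.2 CPM), Zbtb16 (50.2 CPM), Setdb2 (18.2 CPM), Gpr6 (40.9 CPM), Fam43a (72.2 CPM), Fkbp5 (162 CPM), Minar1 (54.6 CPM) and Hhip (8.54 CPM), and the lowest for Tnfrsf11b (3.90 CPM) and Socs3 (9.44 CPM). Each of these values lay on the side of the IP118/PY115 libraries. Treated 1 stood apart in 3 groups, low for Fam43a (15.4 CPM) and high for Cish (26 CPM) and Cyp26b1 (10.0 CPM), each on the side of vehicle.

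Other libraries stood apart for single genes: vehicle 6 for Agrp (1003 CPM), treated 6 for Cartpt (391 CPM), treated 2 for Mc3r (36.9 CPM), vehicle 9 for Avp (231 CPM), treated 9 for Oxt (195 CPM) and treated 10 for Fam222b (51.4 CPM).

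The effect of IP118/PY115 differed between ARC and PVN by the test of the difference itself, on the log2 scale and as ARC minus PVN, for Appl2 (0.4525), Tsc22d1 (-0.5056), Cyp51 (-0.5729), Apobec1 (-1.489), Tmem200a (-0.6583) and Fam222b (-0.4283). Ift57 (-0.5209), named after its value was seen, passed the same test.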

How the results depend on the processing

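The count of 0 genes called in the 19 arcuate libraries was also 0 without robust estimation, with RLE size factors, with library totals alone, with no filter, with a stricter filter, with the library total as covariate and without vehicle 8 and vehicle 9. It was 59 with DESeq2, 28 with limma-voom and quality weights, 17 with the oligodendrocyte score as covariate, 25 with 2 surrogate variables, 14 at an FDR under 0.1 and 22 in the joint fit of 59 libraries, which was chosen after seeing the data. Without vehicle 1 and treated 1 it was 153, and without treated 2 as well 207. Leaving out each library in turn gave 0 to 85, with 85 without vehicle 1, 50 without treated 1 and 1 without treated 2. The ARC and PVN difference was called in 52 genes without the libraries numbered 1 and in 26 by limma-voom, and the ARC and NTS difference in 35 and 3. The causes were not tested. No paired analysis was possible because the labels give the groups no shared replicate numbers. Depth limits genes of a few CPM, such as Phf11c and Crh.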
